A study of Mus musculus with 24 samples.

Results

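The 34 genes described here encode cytokines, chemokines and colony stimulating factors, and all 34 were found by gene symbol among the 49315 genes of the count tables. They were measured by mRNA sequencing in primary cortical astrocytes of wild type C57BL/6J mouse embryos, isolated shortly before birth and grown in culture. Cells were mock-irradiated (0 Gy) or exposed to 0.1 Gy or 2 Gy of X-rays 3 days after seeding and harvested 6 h or 24 h later. Each of the 6 conditions had 4 libraries, numbered as replicates 1 to 4, and no condition included a stimulus other than radiation. Levels are counts scaled to the size of each library (CPM) after TMM normalization, and values of 4 libraries are listed in the order of the replicate numbers.

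Cytokines are secreted proteins through which cells signal to each other at low concentrations. Interleukins and tumor necrosis factor (TNF) switch inflammatory programs on or off, chemokines attract leukocytes along a gradient, and colony stimulating factors keep myeloid cells such as microglia alive. In the brain, astrocytes and microglia are both sources of these proteins, and many of their genes are induced through the transcription factors NF-κB and AP-1 and, for part of the chemokines, through interferon signaling.

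The astrocyte markers *Gfap* (343–798 CPM) and *Aqp4* (334–915 CPM) were high in all 24 libraries, while *Rbfox3* and *Snap25*, which define mature neurons, the endothelial *Cldn5* and the fibroblast gene *Lum* reached at most 1.27 CPM. The lists of these cell types also held genes at higher levels. The 8 neuron markers summed to 404–727 CPM, mostly from *Map2* and *Stmn2*, the 8 oligodendrocyte lineage markers to 288–816 CPM and the 10 fibroblast and vessel markers to 291–1524 CPM, mostly from *Col1a1* and *Col1a2*. The cultures also held microglial transcripts, and these differed by replicate number. The summed level of 14 microglia markers was 305–365 CPM in the 6 libraries numbered 2 and 1783–3216 CPM in the other 18. The 12 astrocyte markers summed to 2851–3418 CPM and 2988–3978 CPM in the same libraries. The neuron markers summed to 596–727 CPM in the libraries numbered 2 and to 404–581 CPM in the others, and the oligodendrocyte lineage markers to 567–816 CPM (median 718) and 288–613 CPM (median 407). The fibroblast and vessel markers had medians of 1219 and 485 CPM, with overlapping ranges. The libraries numbered 2 thus stood apart in markers of several cell types, and counts of genes are also given without them. In RNA of whole cultures, fewer cells of a type and less RNA per cell cannot be told apart.

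The first question was how strongly each gene was expressed. Per kilobase of transcript, *Csf1* had the highest median over the 24 libraries (124 CPM per kb, range 107–201). It encodes the growth factor on which microglia depend. *Cxcl14* (55.7 CPM per kb, 32.4–80.1) and *Cx3cl1* (39.3, 21.4–56.2), which encodes the membrane-bound fractalkine recognized by microglial Cx3cr1, followed. The ranges of these last 2 genes overlapped, and those of the next, *Cxcl16* (23.5, 4.25–39.4), *Ccl2* (19.8, 3.69–88.6) and *Cxcl10* (17.0, 7.95–52.5), overlapped as well. *Il6* ranked 24th by this measure, at 1.203 CPM per kb, with a range of 0.122–15.4. These medians pool both times, and the order differed between them. In mock-irradiated cells at 6 h the means of *Ccl2* (52.2 CPM per kb) and *Il11* (29.3) were above those of *Cx3cl1* (45.1) and *Cxcl16* (26.9), respectively, and *Il6* had 5.89, whereas at 24 h *Ccl2* had 8.29, *Il11* 0.675 and *Il6* 0.344.

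Of the 34 genes 26 could be tested in every comparison planned from the study design, and 3 in none. *Csf2* (0–27 counts), *Csf3* (0–14 counts) and *Cxcl9* (0–14 counts) were too low to judge throughout. Their products drive granulocyte and macrophage growth (*Csf2*, *Csf3*) and attract T cells (*Cxcl9*). Among the other 5 genes, *Cxcl5* (0–21 counts), *Ccl20* (0–22 counts) and *Il12b* (0–22 counts) were too low in most comparisons, *Cxcl11* (3–72 counts) was too low for the dose comparisons at 24 h and for 24 h against 6 h without irradiation, and *Cxcl1* (4–107 counts) was too low for 2 Gy against 0 Gy at 24 h.

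To show the regulatory sequence in front of genes with different behavior over time, the 250 bases upstream of the RefSeq transcription start (build GRCm38.p6) are given for 4 genes that were lower at 24 h and for *Csf1*, an abundant gene that was not called. Capitals mark matches on either strand to GGGNNNTTCC (the NF-κB motif), TGANTCA (AP-1) or the interferon response element (GAAA, any 2 bases, GAAA). Matches may overlap. The regions are chr5:30012864-30013113 (plus strand) for *Il6*, chr11:4257318-4257567 (plus) for *Lif*, chr5:90890995-90891244 (plus) for *Cxcl1*, chr5:92348890-92349139 (minus) for *Cxcl10* and chr3:107760470-107760719 (minus) for *Csf1*.
Il6: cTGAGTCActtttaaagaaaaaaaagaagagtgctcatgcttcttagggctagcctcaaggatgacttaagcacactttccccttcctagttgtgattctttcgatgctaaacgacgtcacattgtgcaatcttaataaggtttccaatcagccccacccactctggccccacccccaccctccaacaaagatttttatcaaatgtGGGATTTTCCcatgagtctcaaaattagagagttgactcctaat
Lif: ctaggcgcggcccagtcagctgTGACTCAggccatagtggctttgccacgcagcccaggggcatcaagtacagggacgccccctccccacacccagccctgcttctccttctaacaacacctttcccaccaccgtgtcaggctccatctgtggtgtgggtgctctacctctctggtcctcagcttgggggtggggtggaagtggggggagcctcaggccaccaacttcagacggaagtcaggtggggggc
Cxcl1: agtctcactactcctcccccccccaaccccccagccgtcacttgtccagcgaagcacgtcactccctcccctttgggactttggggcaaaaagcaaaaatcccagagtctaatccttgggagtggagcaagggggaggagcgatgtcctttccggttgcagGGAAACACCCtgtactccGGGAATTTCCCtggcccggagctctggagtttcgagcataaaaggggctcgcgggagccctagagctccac
Cxcl10: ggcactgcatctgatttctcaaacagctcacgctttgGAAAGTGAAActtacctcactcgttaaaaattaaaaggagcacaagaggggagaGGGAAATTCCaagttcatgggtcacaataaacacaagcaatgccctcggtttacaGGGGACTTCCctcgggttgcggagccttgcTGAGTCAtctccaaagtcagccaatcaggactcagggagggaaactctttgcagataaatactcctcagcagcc
Csf1: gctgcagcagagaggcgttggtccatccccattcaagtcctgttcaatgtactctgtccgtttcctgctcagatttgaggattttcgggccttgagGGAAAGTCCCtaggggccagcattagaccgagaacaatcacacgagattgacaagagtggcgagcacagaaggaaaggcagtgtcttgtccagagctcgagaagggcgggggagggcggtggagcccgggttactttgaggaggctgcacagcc

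The *Il6* window held 1 NF-κB match, 44 to 35 bases before the start, and 1 AP-1 match at its distal end. The *Cxcl1* window held 3 NF-κB matches, of which 2 overlap on opposite strands. The *Cxcl10* window held all 3 motifs, with 2 NF-κB matches, and the *Lif* window only an AP-1 match. *Csf1* carried an NF-κB match too. Of 32851 promoter windows of this length, 4.65% held the NF-κB motif, 6.75% the AP-1 motif and 2.98% the interferon response element. Of the 23 genes described here that have an entry, 8 held the first, 7 the second and 2 the third. These matches are descriptions of sequence, and binding was not measured.

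The comparison of 24 h with 6 h asked which of these genes changed with time after exposure or mock exposure. In mock-irradiated astrocytes, 7 of 27 tested genes were lower at 24 h and none was higher (edgeR quasi-likelihood test, adjusted p under 0.05), while 6.7% of all 15887 tested genes were called, 3.46% as lower and 3.24% as higher. The 7 were the IL-6 family genes *Il6*, *Il11* and *Lif* and the chemokines *Ccl2*, *Ccl7*, *Cxcl1* and *Cxcl10*. The median log2 fold change of the 27 genes was −0.64, against −0.02 over all tested genes. The corresponding comparisons at 0.1 Gy and 2 Gy, added after the data were seen, called 7 of 28 (9.9% of all genes, 5.33% as lower and 4.57% as higher) and 8 of 28 (6.95%, 3.92% as lower and 3.02% as higher). The same 7 genes were called as lower at all 3 doses, and *Cxcl11* was also called at 2 Gy. Some of these genes passed the low-count filter mainly through the 6 h libraries, where they were high, so their calls are not independent of the filter. Of the 4 libraries at 24 h only 1 passed for *Cxcl1* at 0 Gy and for *Il6* and *Cxcl11* at 2 Gy, and 3 passed for *Il6* at 0.1 Gy and for *Cxcl1* at 0.1 and 2 Gy. The same holds for genes that only the fit by replicate number called, since *Cxcl2* passed with 4 libraries at 6 h and 3 at 24 h at each dose, *Cxcl11* at 0.1 Gy with 4 and 2 and *Il1a* at 2 Gy with 3 and 2. The 3 comparisons use different libraries, but libraries of one number deviated together within a time, so they are not independent.

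**Figure D1:**
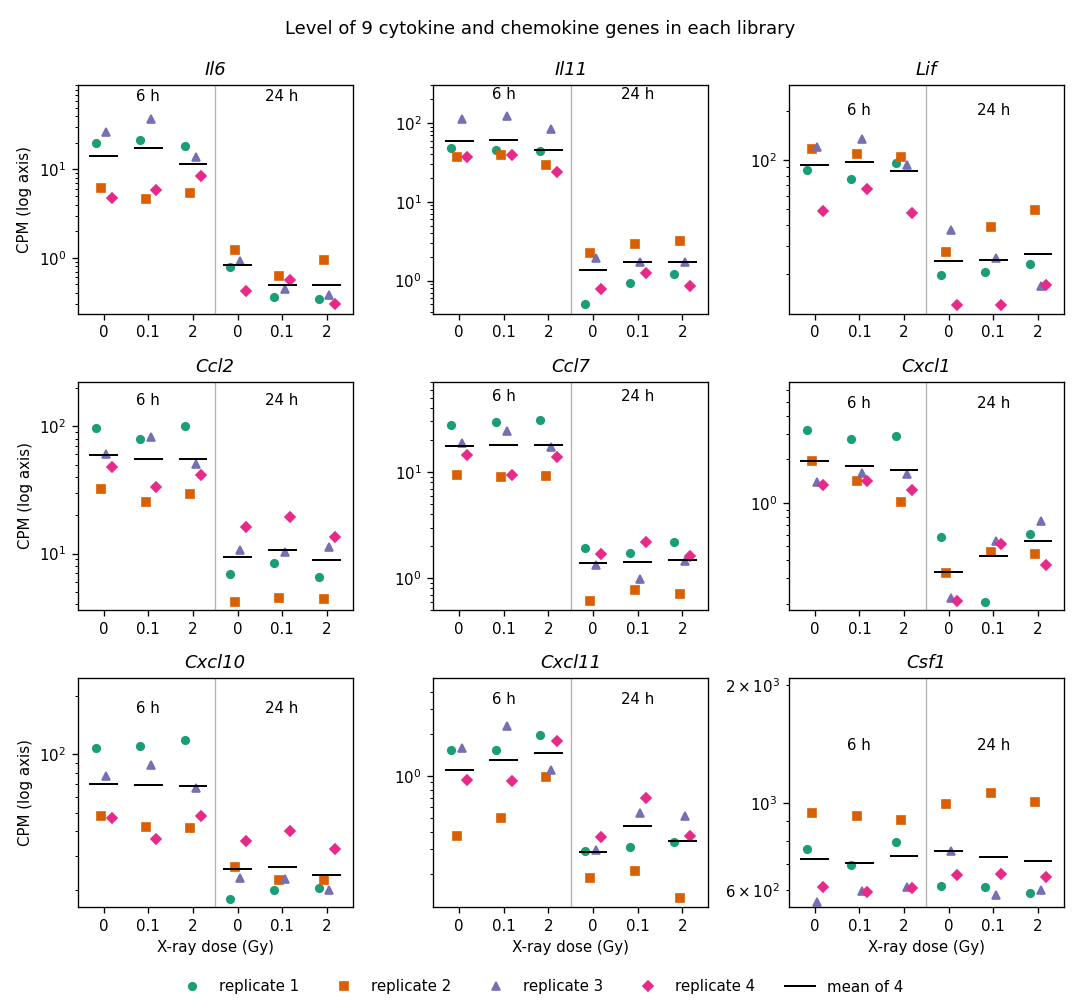
Level in CPM (log axis) of 9 genes in every library, by X-ray dose and time, with symbols for the replicate number and bars for the mean of 4. *Il6*, *Il11*, *Ccl2*, *Ccl7* and *Cxcl1* are higher in all 12 libraries at 6 h than in any at 24 h, while *Csf1* stays between 562 and 1063 CPM. The share of all genes whose times do not overlap was not counted.

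*Il6*, the main inflammatory interleukin of this family, stood at 19.8, 6.12, 26.4 and 4.80 CPM at 6 h and at 0.793, 1.21, 0.919 and 0.418 CPM at 24 h in mock-irradiated cells. After 0.1 Gy it stood at 21.7, 4.63, 37.4 and 5.82 CPM at 6 h and at 0.362, 0.628, 0.443 and 0.555 CPM at 24 h. After 2 Gy the values were 18.2, 5.48, 13.7 and 8.38 CPM and then 0.341, 0.937, 0.377 and 0.297 CPM. The times did not overlap at any dose, and replicates 1 and 3 were the highest at 6 h. The log2 fold change was −4.09 ± 0.62 (SE, n = 4 against 4, adjusted p = 0.00907) at 0 Gy, −5.12 ± 0.74 (adjusted p = 0.00594) at 0.1 Gy and −4.54 ± 0.53 (adjusted p = 0.00436) at 2 Gy, all by edgeR. At 24 h *Il6* was down to 5–26 counts per library. Only 1 library at 24 h after 2 Gy and 3 after 0.1 Gy reached the level of the low-count filter. At these doses *Il6* thus passed the filter through the 6 h libraries, and its calls are not independent of it.

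*Il11*, which encodes a relative of IL-6 that signals through the same subunit gp130, had 48.1, 37.5, 113 and 36.9 CPM at 6 h and 0.501, 2.24, 1.91 and 0.784 CPM at 24 h without irradiation. Replicate 3 was far above the others at 6 h, and even the lowest library at 6 h was far above the highest at 24 h. The log2 fold change at 0 Gy was −5.44 ± 0.58 (adjusted p = 0.00359, edgeR), a 43.3-fold difference and the largest among the genes described here. It was −5.16 ± 0.53 at 0.1 Gy and −4.70 ± 0.55 at 2 Gy. *Lif*, the gene of leukemia inhibitory factor, stood at 86.4, 117, 120 and 48.9 CPM at 6 h and at 19.8, 27.3, 37.1 and 13.0 CPM at 24 h. The times did not overlap in mock-irradiated cells or after 0.1 Gy, but replicate 2 at 24 h after 2 Gy (49.2 CPM) exceeded replicate 4 at 6 h (47.3 CPM). The log2 fold change was −1.95 ± 0.36 at 0 Gy (adjusted p = 0.0182), −1.996 ± 0.35 at 0.1 Gy (adjusted p = 0.0116) and −1.68 ± 0.39 at 2 Gy (adjusted p = 0.0389).

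The 2 neighboring chemokine genes *Ccl2* and *Ccl7*, whose products attract monocytes through Ccr2, fell together. *Ccl2* had 97.4, 32.2, 60.4 and 47.6 CPM at 6 h and 6.85, 4.19, 10.6 and 16.1 CPM at 24 h in mock-irradiated cells. *Ccl7* had 28.0, 9.35, 18.7 and 14.5 CPM at 6 h and 1.92, 0.606, 1.32 and 1.67 CPM at 24 h. For both genes all 12 libraries at 6 h lay above all 12 at 24 h, and replicate 2 was the lowest in each of the 6 conditions. How many of all genes separate the times in this way was not counted. The log2 fold change at 0 Gy was −2.67 ± 0.46 for *Ccl2* (adjusted p = 0.0138) and −3.69 ± 0.44 for *Ccl7* (adjusted p = 0.00512), by edgeR with n = 4 against 4. They lie with *Ccl12* within 67.8 kb of chromosome 11 (build GRCm38, 82035571–82103400). *Ccl12* was not called, with mean levels of 4.46 ± 2.77 CPM (SD, n = 4) at 6 h and 4.00 ± 2.73 CPM at 24 h.

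Among the CXC chemokines, *Cxcl1*, which acts on neutrophils through Cxcr2, had 3.17, 1.94, 1.40 and 1.32 CPM at 6 h and 0.585, 0.326, 0.220 and 0.209 CPM at 24 h without irradiation. The log2 fold change was −2.54 ± 0.45 at 0 Gy (adjusted p = 0.0150), −2.04 ± 0.37 at 0.1 Gy (adjusted p = 0.0123) and −1.66 ± 0.42 at 2 Gy (adjusted p = 0.0483), and at 24 h it rested on 4–21 counts per library. At 24 h only 1 library at 0 Gy and 3 each at 0.1 and 2 Gy reached the level of the low-count filter. *Cxcl1* thus passed the filter through the 6 h libraries, and these values are not independent of it. *Cxcl10*, an interferon-inducible attractant of T cells, had 107, 48.0, 77.3 and 47.1 CPM at 6 h and 17.9, 26.1, 23.1 and 35.8 CPM at 24 h. The times did not overlap here, although replicate 4 was the lowest at 6 h and the highest at 24 h. After 0.1 Gy they overlapped, since replicate 4 had 36.6 CPM at 6 h and 40.2 CPM at 24 h. The log2 fold change was −1.46 ± 0.31 (adjusted p = 0.0281), −1.41 ± 0.38 (adjusted p = 0.0483) and −1.54 ± 0.34 (adjusted p = 0.0319) at 0, 0.1 and 2 Gy. For *Cxcl11*, a neighbor of *Cxcl10* with the same receptor, the call at 2 Gy rested on 3–11 counts per library at 24 h, and no fold change is given. Both genes overlap *Art3* on the opposite strand (22–97 counts), and whether reads were assigned by strand is not given in the sources used here.

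**Figure D2:**
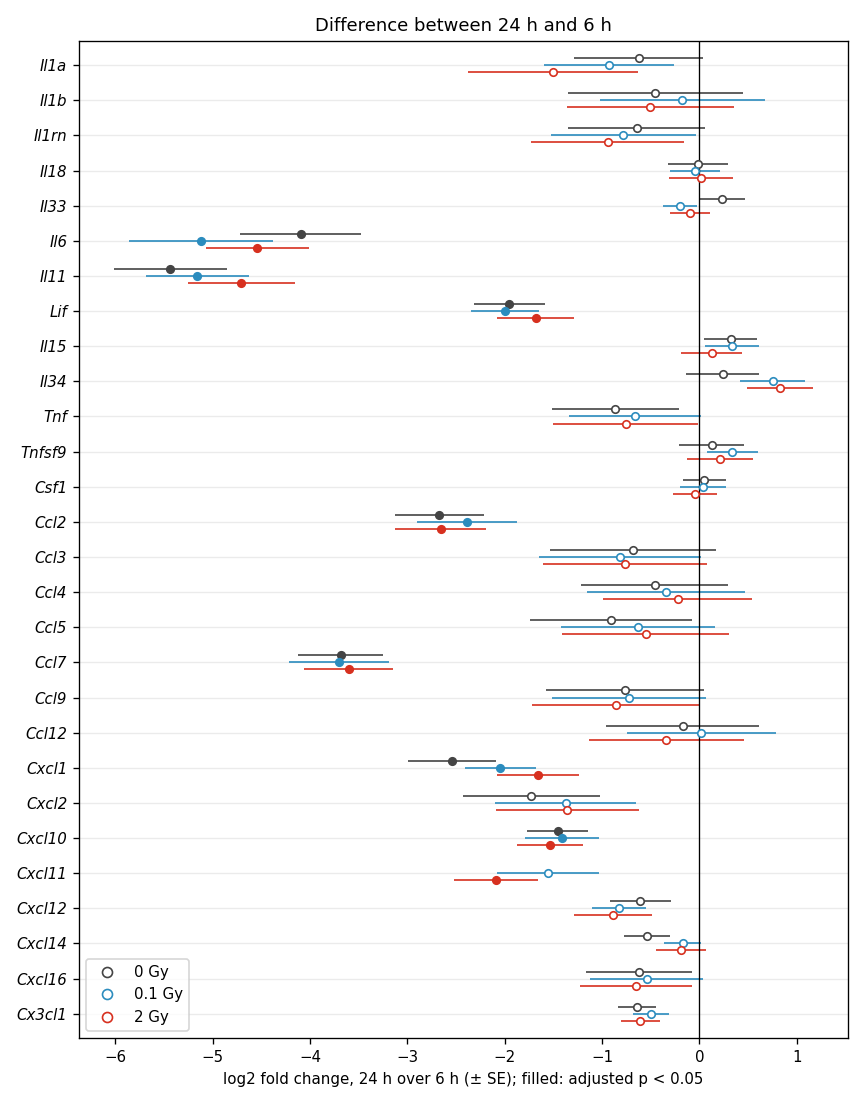
Log2 fold change of 24 h over 6 h with its standard error for the genes tested, at 0, 0.1 and 2 Gy (unpaired edgeR fit, n = 4 against 4). Filled points have an adjusted p under 0.05, and all of them lie on the side of lower levels at 24 h.

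Whether one number is the same culture at both times is not given in the sources used here. The replicate block for the time comparison at 0.1 Gy and 2 Gy rests on the correlations of the libraries alone. They were highest for replicate 2 (0.832 and 0.810) and lowest for replicate 1 (0.367 and 0.246). With this block, 16 of 28 genes and 19 of 28 were called. Among all genes 25.7% and 19.2% were called, 11.8% and 8.82% as higher and 14% and 10.4% as lower. At 0 Gy, where the correlations do not pair the times, the block called 15 of 27 genes, all lower, and 15.3% of all genes (7.26% as higher). At both doses the added genes included *Il1a*, *Il1rn*, *Ccl9*, *Cxcl2*, *Cxcl12*, *Cxcl16* and *Cx3cl1*, all lower at 24 h. The blocked log2 fold change of *Cxcl2* was −1.48 ± 0.30 at 0.1 Gy (adjusted p = 0.00621) and −1.39 ± 0.29 at 2 Gy (adjusted p = 0.0121), and that of *Cxcl12*, which guides cells through Cxcr4, was −0.88 ± 0.15 (adjusted p = 0.00264) and −0.98 ± 0.21 (adjusted p = 0.0137). *Il34*, the gene of the other ligand of the microglial receptor Csf1r, was the only one called as higher. At 0 Gy neither fit called it, with 4.61, 9.68, 2.64 and 5.05 CPM at 6 h and 6.60, 5.545, 8.93 and 5.23 CPM at 24 h. It stood at 3.97, 7.61, 2.91 and 4.35 CPM at 6 h and 5.38, 10.8, 8.68 and 7.32 CPM at 24 h after 0.1 Gy, and at 5.69, 7.87, 3.31 and 3.18 CPM and then 7.56, 11.7, 10.1 and 6.65 CPM after 2 Gy. The times overlapped, with replicate 2 high at 6 h. Its blocked log2 fold change was 0.79 ± 0.20 at 0.1 Gy (adjusted p = 0.0182) and 0.89 ± 0.23 at 2 Gy (adjusted p = 0.0263), higher in 4 of 4 pairs each time, and unpaired it missed the threshold (adjusted p = 0.186 and 0.177). The blocked call of *Il34* was lost at 0.1 Gy without replicate 3 or 4 (adjusted p = 0.0534 and 0.0677) and at 2 Gy without replicate 4 (0.125). At 2 Gy that of *Cxcl12* was lost without replicate 1 or 4 (adjusted p = 0.0686 and 0.0861) and that of *Cxcl2* without replicate 1 (0.0669). Of the other added genes, *Il1a*, *Il1rn* and *Cxcl16* at both doses, *Cxcl11* at 0.1 Gy and *Ccl3*, *Ccl5*, *Ccl9*, *Tnf* and *Cx3cl1* at 2 Gy also lost the call without some replicate number, with adjusted p up to 0.179 for *Il1a* at 0.1 Gy. Neither fit called *Csf1*, *Il18*, *Il33*, *Il15*, *Tnfsf9*, *Ccl12* or *Il1b* at any dose.

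The calls by the unpaired fit rested in part on single libraries. At 0 Gy the count dropped from 7 to 3 without replicate 1 at 6 h, and to 4 without replicate 1 or without replicate 4 at 24 h. At 2 Gy it dropped from 8 to 3 without replicate 3 at 6 h or without replicate 1 at 24 h, and to 4 without replicate 1 at 6 h or without replicate 4 at 24 h. The number called among all genes fell in the same fits, from 1064 to 170, 194 and 214 at 0 Gy and from 1112 to 220–333 at 2 Gy. *Il6*, *Il11* and *Ccl7* stayed under an adjusted p of 0.05 with any one library left out at all 3 doses, with a highest adjusted p of 0.0478 for *Il6* at 0 Gy. *Lif* and *Cxcl10* lost the call at 0 Gy without replicate 1 or 3 at 6 h or replicate 1 or 4 at 24 h, with adjusted p up to 0.0773 and 0.0978. *Ccl2* lost it without replicate 1 at either time (up to 0.0637), and *Cxcl1* without replicate 1 at 6 h or replicate 4 at 24 h (up to 0.0595). At 0.1 Gy *Ccl2* lost the call without replicate 1 or 3 at either time (up to 0.0741) and *Cxcl10* without 6 of the 8 libraries (up to 0.137). At 2 Gy *Lif* and *Cxcl1* lost it without 6 and 7 of the 8 libraries (up to 0.112 and 0.145), *Cxcl10* and *Cxcl11* without 5 each (up to 0.0958 and 0.0880) and *Ccl2* without replicate 3 at 6 h or replicate 1 at 24 h (up to 0.0565). Without all libraries numbered 2, the comparisons called 10, 12 and 9 genes at 0, 0.1 and 2 Gy, against 7.44%, 14.4% and 7.33% of all genes, and 8 of them were lower at all 3 doses.

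None of the 14 microglia markers passed the unpaired test between the times at any dose. Their median log2 fold change was −0.36 at 0 Gy, −0.19 at 0.1 Gy and −0.19 at 2 Gy, with 14, 11 and 11 of them lower at 24 h. The error of the unpaired fit holds the difference between replicate 2 and the others, so it could miss changes. Outside the libraries numbered 2 their sum at 0 Gy was 2368–3216 CPM at 6 h and 1783–2175 CPM at 24 h, without overlap. The times overlapped at 0.1 Gy (2448–2889 and 2059–2516 CPM) and at 2 Gy (2495–2622 and 2049–2840 CPM). Of the other marker lists, 0 of 7 tested oligodendrocyte lineage markers and 0 of 8 fibroblast and vessel markers were called at any dose, the latter with median log2 fold changes of −0.53, −0.55 and −0.59. The neuron markers *Gad1* and *Syt1* were called at 0.1 Gy, 1 higher and 1 lower, and *Gad1* at 2 Gy, as lower. The astrocyte marker *Sox9* was called as higher at both doses. From 6 h to 24 h the median sum of the oligodendrocyte lineage markers went from 412 to 506 CPM at 0 Gy, from 358 to 589 CPM at 0.1 Gy and from 392 to 585 CPM at 2 Gy. That of the neuron markers went from 441 to 555, from 430 to 492 and from 456 to 522 CPM. The part of these cell types in the changes over time was not tested.

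Genes of cytokine signaling were compared in the same fits. Of 22 genes of NF-κB, STAT and feedback signaling, the unpaired fit called 2 at 0 Gy, 4 at 0.1 Gy and 3 at 2 Gy, each of them lower at 24 h, while 6.7%, 9.9% and 6.95% of all genes were called. The blocked fit called 10 at 0.1 Gy and 7 at 2 Gy, against 25.7% and 19.2% of all genes, and 1 of these was higher at both doses. This was *Traf1*, an adaptor gene of TNF receptors, at 1.28 ± 0.25 (adjusted p = 0.00446) and 1.37 ± 0.19 (adjusted p = 0.00282). In the unpaired fit *Nfkb2*, an NF-κB subunit gene, was called at each dose, with log2 fold changes of −0.83 ± 0.19, −0.75 ± 0.14 and −0.79 ± 0.20. *Nfkbia*, which encodes the inhibitor IκBα, stood at 131, 62.7, 102 and 118 CPM at 6 h and at 40.8, 24.5, 54.7 and 57.4 CPM at 24 h without irradiation (−1.24 ± 0.30, adjusted p = 0.0418, edgeR). The times did not overlap. Of 27 receptor genes 23 were tested, and the unpaired fit called 1 at 0 Gy and 2 each at 0.1 Gy and 2 Gy, and the blocked fit 13 at 0.1 Gy (4 higher) and 12 at 2 Gy (3 higher), to be read against the same shares. *Cxcr6*, the gene of the Cxcl16 receptor, was called at 0 Gy and 2 Gy, but at 24 h without irradiation it stood at 0.459, 0.792, 0.441 and 0.314 CPM, near the limit of the low-count filter, and no fold change is given. *Il11ra1*, the gene of the IL-11 receptor subunit, was higher at 2 Gy (1.04 ± 0.26, adjusted p = 0.0452), but it has near-identical copies, so its counts are uncertain. At 0.1 Gy *Il6st*, the gene of the shared subunit gp130, was higher at 24 h (0.49 ± 0.13, adjusted p = 0.0427), and *Il1rap*, which encodes a subunit of the IL-1 receptor, was lower (−1.05 ± 0.21, adjusted p = 0.0191).

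The dose comparisons asked whether irradiation changed these genes. By the unpaired fit none did. The numbers called were 0 of 30 tested genes for 2 Gy and 0 of 28 for 0.1 Gy at 6 h, and 0 of 26 and 0 of 27 at 24 h. Among all genes 0% were called in each of these 4 comparisons, although 215, 24, 570 and 241 genes had an unadjusted p under 0.05 in the same order, none of them among the 34. DESeq2 without a block called 0 of the 34 genes as well, but over all genes it called 103 for 2 Gy at 24 h (101 lower), and edgeR with all 24 libraries in one fit called 108 (107 lower). The log2 fold changes lay between −0.36 and 0.46 for 2 Gy and between −0.23 and 0.32 for 0.1 Gy at 6 h, and between −0.76 and 0.49 and between −0.75 and 0.37 at 24 h. Their median standard error was 0.44–0.47, with a range of 0.148 to 1.06 over genes and comparisons, so the size that could be detected differed between genes. The comparisons with 0.1 Gy and with 2 Gy share their mock-irradiated libraries.

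**Figure D3:**
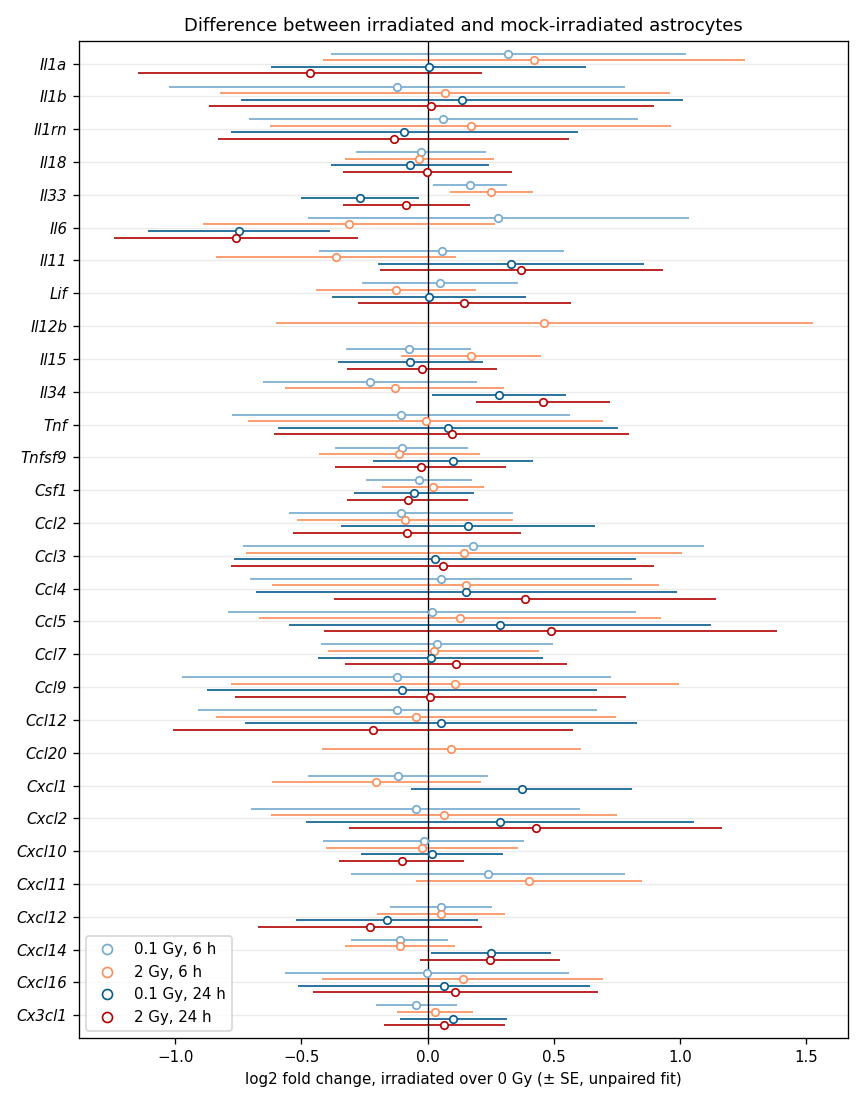
Log2 fold change of irradiated over mock-irradiated astrocytes with its standard error for the genes tested, for 0.1 Gy and 2 Gy at 6 h and 24 h (unpaired edgeR fit, n = 4 against 4). No point has an adjusted p under 0.05, and the points lie between −0.76 and 0.49.

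Libraries with the same number deviated together within a time, so the replicate block applies here. It lowered the median standard error to 0.12–0.16. With it, 0% of all genes were called at 6 h for either dose, and at 24 h 13.2% after 2 Gy (6.53% higher, 6.69% lower) and 6.84% after 0.1 Gy (2.34% higher, 4.5% lower). Of the cytokine and chemokine genes 1 of 26 was then called after 2 Gy and 0 of 27 after 0.1 Gy. The number of genes called overall rested on single replicate numbers. Without number 1, 2, 3 or 4 it went from 2100 to 143, 69, 5291 and 245 after 2 Gy and from 1107 to 1176, 21, 3728 and 16 after 0.1 Gy. With a correction for GC content and length the blocked fit called 564 genes after 2 Gy at 24 h (295 higher, 269 lower). After 0.1 Gy it called 298 (216 higher, 82 lower), so the balance of directions changed. At 6 h it called 115 after 2 Gy and 0 after 0.1 Gy. The cytokine gene called after 2 Gy was *Ccl5*, whose product attracts T cells and macrophages. At 24 h it stood at 6.89, 1.30, 25.4 and 7.89 CPM in mock-irradiated cells, at 13.1, 1.92, 21.9 and 14.5 CPM after 0.1 Gy and at 13.8, 1.56, 32.2 and 10.6 CPM after 2 Gy. The groups overlapped over most of their range, replicate 2 was the lowest and replicate 3 the highest in each, and after 2 Gy the level was higher in 4 of 4 pairs. The blocked log2 fold change after 2 Gy was 0.54 ± 0.15 (adjusted p = 0.0440, edgeR) and the unpaired one 0.49 ± 0.90 (adjusted p = 0.947).
The call for *Ccl5* was lost in the blocked fit without replicate 1 (adjusted p = 0.201), 2 (0.146) or 4 (0.118) and with a correction for GC content and length (adjusted p = 0.264). Without replicate 3 at 24 h after 2 Gy the unpaired value turned to −0.24. Of the microglia markers 12 of 14 were higher at 24 h after 2 Gy, and the blocked fit called 3 of them, 2 as higher. Their summed level at 24 h was 305–2175 CPM in mock-irradiated cells and 331–2840 CPM after 2 Gy, and their part in the *Ccl5* result was not tested.

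The inflammatory genes *Il1b*, *Tnf* and *Il6*, which were also chosen for RT-qPCR, were not called in any dose comparison. The study's RT-qPCR used other X-ray doses and in part other times. It reported each of these genes as upregulated at some doses up to 6 h after exposure, with *Il6* lower at another dose. *Il1b*, the gene of interleukin-1β, had 8.43, 0.414, 4.00 and 2.25 CPM in mock-irradiated cells and 7.94, 0.562, 5.07 and 2.08 CPM after 2 Gy at 6 h. *Tnf* had 12.4, 1.82, 13.0 and 9.07 CPM in mock-irradiated cells and 12.5, 1.44, 14.1 and 7.95 CPM after 2 Gy at the same time. For both genes the spread between the replicates was far wider than the difference between the doses. *Il6*, given above, overlapped between all doses at 6 h. At 24 h each replicate number of *Il6* was lower after 2 Gy than without irradiation. These libraries held 5–26 counts, and neither edgeR fit called the gene.

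The blocked fit also called genes of the cytokine pathway at 24 h. Their shares are to be read against the 13.2% and 6.84% of all genes called. Of the 22 signaling genes 4 were higher after 2 Gy and 2 after 0.1 Gy. *Relb*, an NF-κB subunit gene, was among both, with blocked log2 fold changes of 0.55 ± 0.12 (adjusted p = 0.0270) and 0.46 ± 0.12 (adjusted p = 0.0406), and *Cebpb*, which encodes a transcription factor of inflammatory genes, rose by 0.62 ± 0.15 (adjusted p = 0.0343) and 0.58 ± 0.16 (adjusted p = 0.0453). Of the receptor genes 3 were lower and 1 was higher after 2 Gy, and 2 were lower and 1 was higher after 0.1 Gy. *Il1r1*, which encodes the receptor of IL-1, was lower after both doses (−0.61 ± 0.14, adjusted p = 0.0266, and −0.38 ± 0.11, adjusted p = 0.0481). *Ccr1*, a chemokine receptor gene, was lower after 2 Gy (−0.81 ± 0.18, adjusted p = 0.0257). None of these passed the unpaired test.

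The interaction of 2 Gy and time, which tests whether the effect of 2 Gy differed between 24 h and 6 h, called 0 of 31 genes in the unpaired and 0 of 31 in the blocked edgeR fit (0% and 6.78% of all genes, the latter 3.55% higher and 3.23% lower), with 0 and 4 of them at an unadjusted p under 0.05. DESeq2 called none of the 34 genes without the block and 1 with it, where it called 2484 of 12790 genes overall. The gene was *Il11*, named after its values were seen.

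The replicate number accounted for more of the variation than dose in each of the 26 genes tested in all dose comparisons. Split by time, replicate number within a time and dose within a time, the sum of squares of log2(CPM + 0.5) over the 24 libraries had a median share of 72.3% for the replicate number (6 degrees of freedom), 10.99% for time (1) and 0.602% for dose (4). Time took 93.1% for *Il11*, 89.3% for *Ccl7* and 84.6% for *Il6*. The replicate number took 97.3% for *Il1b*, 95.4% for *Ccl12* and 95.2% for *Ccl4*. The largest share of dose was 20.3%, for *Il33*, an alarmin of the IL-1 family.

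**Figure D4:**
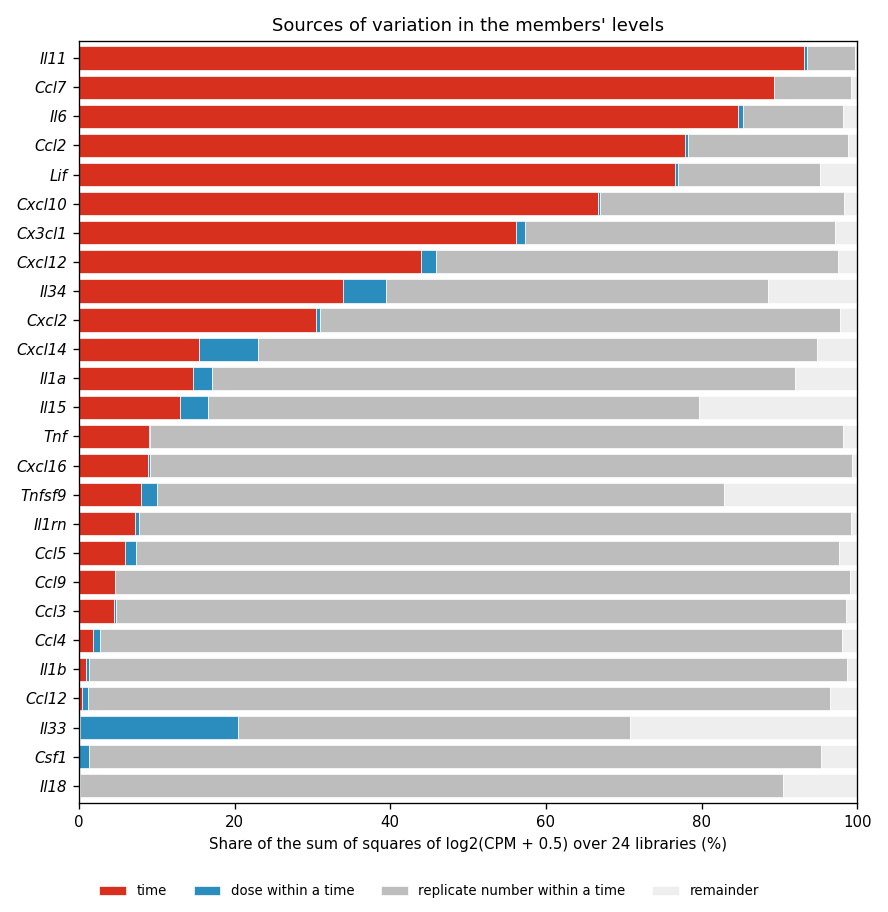
Share of the sum of squares of log2(CPM + 0.5) that falls to time, to dose within a time, to the replicate number within a time and to the remainder, for 26 genes over 24 libraries. The IL-6 family genes and *Ccl2*, *Ccl7*, *Cxcl10* and *Cx3cl1* are led by time, the others by the replicate number, and the share of dose is at most 20.3%.

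In the libraries numbered 2, 17 of the 34 genes were the lowest of the 4 libraries in all 6 conditions, and 14 of 14 microglia markers were as well. The 17 include *Cxcl5*, at 0–3 counts in those libraries, and *Cxcl11*, at 3–28 counts. Among the genes with a mean of at least 10 counts over the 24 libraries, 16 of these 28 genes (57.1%) and 12.7% of all 16196 genes were the lowest in all 6 conditions. *Ccl9* was 12.3 times lower there than the median of the other 3 libraries (median of 6 conditions), *Il1b* 11.6 times, *Ccl3* 10.7 times, *Ccl12* 10.4 times and *Il1rn* 9.01 times. *Ccl4* (8.86 times), *Ccl5* (8.52), *Cxcl2* (7.28), *Tnf* (6.61) and *Il1a* (6.17) were lower there as well. The ratios of the 14 microglia markers were 3.37–10.2 with a median of 8.02, so that *Ccl9*, *Il1b*, *Ccl3* and *Ccl12* lay above this range. By contrast, *Ccl2* (2.40 times) and *Ccl7* (2.26 times) were lowered less. *Csf1* and *Cx3cl1* were the highest in replicate 2 in all 6 conditions, at 1.54 and 1.41 times the other libraries, and *Lif*, *Il11*, *Il34*, *Cxcl12* and *Il33* had median ratios above 1. Of all 16196 genes, 10.7% were the highest there in all 6 conditions. So were the oligodendrocyte lineage markers *Pdgfra* (2.82 times the other libraries), *Cspg4* (2.47) and *Olig2* (1.60), the neuron markers *Tubb3* (1.99) and *Map2* (1.48) and the pericyte gene *Rgs5* (8.96). These ratios are descriptions over 1 replicate number, with no test, and the part of microglia and of these other cell types in them was not tested.

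**Figure D5:**
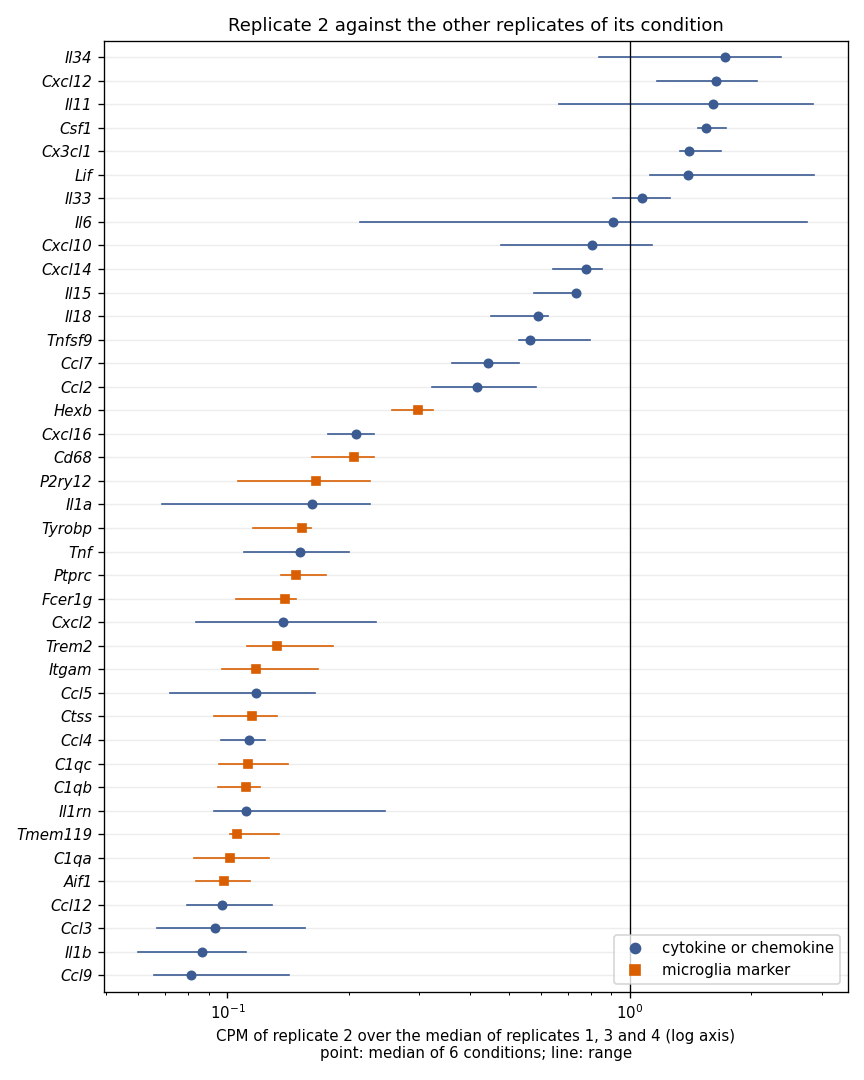
Level of replicate 2 over the median of replicates 1, 3 and 4 of the same condition (log axis), as the median and range over 6 conditions, for 26 cytokine and chemokine genes and 14 microglia markers. *Ccl9*, *Il1b*, *Ccl3* and *Ccl12* have medians below the lowest marker median, while their ranges overlap those of the markers, and *Csf1*, *Cx3cl1*, *Cxcl12* and *Lif* lie above 1 in all 6 conditions.

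Of the genes described here, the 4 CC chemokine genes *Ccl5*, *Ccl9*, *Ccl3* and *Ccl4* lie within 139 kb of chromosome 11 (83525778–83664683, build GRCm38). All were among the genes low in replicate 2, and none was called between the times by the unpaired fit. The blocked fit called *Ccl5* and *Ccl9* at 0 Gy, where the numbers do not pair the times. It also called *Ccl9* at 0.1 Gy and *Ccl3*, *Ccl5* and *Ccl9* at 2 Gy. The calls at 0 Gy were lost without some replicate number (adjusted p up to 0.129 for *Ccl5* and 0.299 for *Ccl9*). So were those at 2 Gy (adjusted p up to 0.0870 for *Ccl3*, 0.126 for *Ccl5* and 0.137 for *Ccl9*). The genes of the Cxcr2 ligands *Cxcl5*, *Cxcl1* and *Cxcl2* lie within 147 kb of chromosome 5 (90759360–90905938). *Cxcl1* and *Cxcl2* differed in replicate 2, where *Cxcl2* was 7.28 times lower and *Cxcl1* 1.14 times. *Cxcl5* was at 0–21 counts. Across the IL-1 family none of the 5 genes was called between the times by the unpaired fit, and of the IL-6 family all 3 were called at each dose. The blocked fit called *Il1a* and *Il1rn* at 0.1 Gy and 2 Gy.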

How the data were processed

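RNA of cultured astrocytes was sequenced from poly(A)-selected mRNA. What the authors deposited is 1 table of raw gene counts for each library, neither normalized nor pooled (build mm10 per the labels). Trimming, mapping and counting were done by the sequencing company. The aligner, the counter and the use of strand are not given in the sources used here. Totals were 14742855–38194800 counts per library. Genes overlapping on opposite strands and near-identical copies are uncertain. No 2 libraries of a condition agreed within sampling noise (36 pairs). GEO's labels call the 4 libraries of a condition biological repeats.

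Counts were fitted in R 4.3.3 with edgeR 4.0.16 (TMM, the low-count filter with its minimum count of 10, quasi-likelihood test, Benjamini-Hochberg adjustment over all genes tested, a call at an adjusted p under 0.05), using only the libraries compared. A gene removed by that filter was too low to judge in that comparison. The study does not name its own test. The correlation across genes of deviations of libraries sharing a number was 0.514–0.907 in the dose comparisons, so the replicate number pairs libraries within a time. Between the times it was 0.246–0.832 at 0.1 Gy and 2 Gy and as low as 0.0887 at 0 Gy. The fits were tested on simulated data. Alternatives were the replicate block, DESeq2 1.42.0 with and without it, DESeq2's size factors, library size alone, no filter, all 24 libraries in one fit, a GC and length correction with the block (splines with 5 degrees of freedom) and each library left out. The time comparisons at 0.1 Gy and 2 Gy, the fits without replicate 2 and the blocked fits without one number were added after the data were seen.

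The 34 genes and all lists were chosen with earlier results of these data known. Fold changes are given only for genes at an adjusted p under 0.05 in the unpaired or blocked edgeR fit, or an unadjusted p under 0.05 in the unpaired fit, of that comparison, and for up to 3 receptor and 3 signaling genes per comparison with the smallest p among those called. Promoter sequences are RefSeq's, and 23 of the 34 genes had an entry.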

Additional observations from a re-analysis of the deposited data

Results flagged for a closer look

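In 14 of 186 groups of 4 libraries, 1 library stood apart from the other 3 by a Dixon test, which chance alone does in about 1 in 20 groups. The library was number 2 in 9 of the 14, and in 6 of these it was the lowest. *Cxcl16*, the gene of a membrane-bound chemokine, was low in replicate 2 in 4 conditions, at 21.6 CPM at 6 h and 15.0 CPM at 24 h without irradiation, 25.0 CPM at 6 h after 2 Gy and 12.9 CPM at 24 h after 0.1 Gy, while the other libraries of these conditions had 64.3–113 CPM. Replicate 2 was also low for *Il18* at 6 h after 0.1 Gy (4.28 CPM, others 6.82–7.11) and for *Cxcl2* at 24 h without irradiation (0.326 CPM, others 2.43–2.76). It was high for *Csf1* at 24 h, at 1063 CPM after 0.1 Gy and 1009 CPM after 2 Gy, and for *Il6* at 24 h after 2 Gy (0.937 CPM, others 0.297–0.377).

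Replicate 3 was high for *Il11* at 6 h, at 113 CPM without irradiation and 122 CPM after 0.1 Gy. Replicate 1 was high for *Cxcl1* at 6 h after 0.1 Gy (2.76 CPM), and replicate 4 for *Cxcl10* at 24 h after 0.1 Gy (40.2 CPM). For *Il12b* at 24 h after 2 Gy, replicate 4 had 0.0743 CPM and the others 0, which is a difference of very few counts.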

How the results depend on the processing

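For 2 Gy and 0.1 Gy at 6 h, every alternative run called 0 of these genes. At 24 h and in the interaction, the alternatives without the block and the block with the GC correction also called 0. With the replicate block, 1 gene was called after 2 Gy at 24 h by edgeR and 1 by DESeq2, and DESeq2 with the block called 1 after 0.1 Gy (*Cxcl14*, adjusted p = 0.0478, named after its value was seen) and 1 in the interaction. The blocked fits without one number called 0–4 genes after 2 Gy and 0–2 after 0.1 Gy at 24 h and 0–5 in the interaction, each time the most without replicate 3, where 5291 of 15986, 3728 of 16060 and 3951 of 16871 genes were called overall. With each library left out the unpaired counts were 0 in all dose comparisons, and 3–9, 5–9 and 3–8 for the time comparisons at 0, 0.1 and 2 Gy. With the replicate block these 3 gave 15, 16 and 19 genes, with DESeq2 and the block 16, 15 and 19, with the block and the GC correction 16, 17 and 19, and in blocked fits without one number 7–15, 12–17 (14 without replicate 1 and 14 without replicate 2) and 9–19. Calls over all genes moved as well, to 4219 of 15850, 5873 of 16210 and 4598 of 15965 with the GC correction and to 595–7192, 2182–3875 and 885–4864 without one number. *Cxcl1* at 2 Gy lost its call with library size alone (adjusted p = 0.0548) and with no filter (0.0730), and *Cxcl10* at 0.1 Gy with library size alone (0.0583). At 0 Gy the numbers do not pair the times, since the correlation for replicate 3 was 0.0887, and 2 of 4 libraries correlated best with their own number. At 0.1 Gy DESeq2, fitted without the low-count filter, called 11 genes, *Csf2* and *Csf3* among them, and 12 were called without replicate 2 in every group. At 2 Gy DESeq2 called 10 genes, with *Csf2* and *Ccl20*, and 1 fit of all 24 libraries called 10, with *Ccl20* and *Il12b*. At 0 Gy both called *Cxcl11*. The edgeR filter left these genes out of the comparisons named. Among the genes called in the unpaired or blocked fit of a comparison, which alone were followed across alternatives, the direction reversed for *Ccl5*, after 2 Gy at 24 h (−0.24 to 1.42 with one library left out) and for 24 h against 6 h at 2 Gy (−1.30 to 0.029). The cause of these differences was not tested, except that fits with fewer libraries hold fewer values. With the block in edgeR, no gene called by the unpaired fit lost its call, and with DESeq2 and the block *Cxcl10* at 0.1 Gy did. Genes under the low-count filter are limited by depth.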
